A study of Mus musculus with 17 samples.

Results

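The class I olfactory receptors of the mouse lie in 1 large cluster on chromosome 7, and the numbers Olfr543 to Olfr699 hold most of them. Rows of the array were taken as members where the platform annotation gave exactly 1 symbol in that numbered block. This left 114 rows for 113 genes, of 21780 rows with 1 symbol (19935 genes) and 28815 rows in all. Olfr617 had 2 rows, and 11 more rows that named a receptor of the block together with other genes were not used. By the MOR family names in the gene table, 107 rows were class I receptors under 41 family names. These names count MOR0/MOR32, borne by 1 row, apart from MOR32. Another 5 rows (Olfr693, Olfr695, Olfr697, Olfr698 and Olfr699, all of family MOR283) were class II receptors. Olfr605 and Olfr652 were given no class, because their names did not settle it.

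The samples were 17 single 2-cell embryos of strain 129SVE, 1 array each. There were 10 embryos of 3 wild-type males injected daily for 6 weeks with PJ34, which blocks the PARP1 and PARP2 enzymes that make poly(ADP-ribose) (sires MTM11 with 4 embryos, MTM13 with 4 and MTM14 with 2), and 7 embryos of 3 wild-type males given saline (1 embryo of sire A, 3 each of sires B and D), which the labels also call untreated. All dams were untreated wild-type females, mated naturally, so the treatment reached only the fathers. Embryos of 1 sire share that sire, and p-values over embryos treat them as independent.

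Olfactory receptors are G-protein-coupled receptors of the nose. Each mature olfactory neuron expresses 1 receptor allele, chosen among the whole repertoire, and signals through Golf, adenylyl cyclase 3 and a cyclic nucleotide-gated channel. Class I receptors, the family that mammals share with fish, are expressed in the dorsal zone of the olfactory epithelium and many of them respond to organic acids. A 2-cell embryo has no olfactory neurons.

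The promoters of 3 receptors are printed here for a high value in a single embryo. In each row that value lay at least 1 log2 unit above the row's median, as described further on. The sequences are from RefSeq on GRCm38.p6, 250 bases before the annotated start to 50 after it, read in the direction of transcription. Capitals mark 3 kinds of match found on either strand: the TATA-box letters TATAAA, the homeodomain core TAATTA and the Ebf core CCCNNGGG. The Olfr698 window is on the minus strand at chr7:106753337-106753636, the Olfr618 window on the plus strand at chr7:103597068-103597367 and the Olfr593 window on the plus strand at chr7:103211612-103211911.
Olfr698: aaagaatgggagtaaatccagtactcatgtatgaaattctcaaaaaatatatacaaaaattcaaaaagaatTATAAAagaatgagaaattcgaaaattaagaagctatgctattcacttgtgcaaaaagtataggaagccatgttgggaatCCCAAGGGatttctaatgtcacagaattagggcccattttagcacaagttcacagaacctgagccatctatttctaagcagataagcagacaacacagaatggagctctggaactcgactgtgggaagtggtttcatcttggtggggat
Olfr618: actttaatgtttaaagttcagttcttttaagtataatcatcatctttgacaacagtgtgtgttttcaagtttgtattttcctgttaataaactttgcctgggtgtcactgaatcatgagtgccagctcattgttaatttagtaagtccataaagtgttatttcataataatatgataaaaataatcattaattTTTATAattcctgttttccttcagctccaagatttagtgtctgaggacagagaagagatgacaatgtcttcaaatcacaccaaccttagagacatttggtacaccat
Olfr593: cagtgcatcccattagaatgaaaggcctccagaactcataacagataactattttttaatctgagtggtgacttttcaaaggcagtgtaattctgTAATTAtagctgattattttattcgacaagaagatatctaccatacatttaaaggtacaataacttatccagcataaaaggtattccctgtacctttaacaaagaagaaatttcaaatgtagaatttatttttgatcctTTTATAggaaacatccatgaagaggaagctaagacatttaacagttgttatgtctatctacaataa

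The table of promoters held 97 of the 113 receptor genes. Their windows were poor in G and C, with a median of 37.3% against 34.8% in 766 other olfactory receptors and 52.7% over all 27025 genes. No CpG occurred in 34.0% of the receptor windows, against 33.4% in other olfactory receptors and 5.78% over all genes. The annotated start was an ATG in 73.2% of the receptors, against 72.7% in other olfactory receptors and 6.75% of all genes, as it was in the 3 windows printed. For those genes the window is the stretch before the coding sequence and not a mapped transcription start.

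The letters TATAAA were found in 39.2% of the receptor windows, against 41.8% in other olfactory receptors and 14.2% over all genes. TAATTA, the core bound by homeodomain factors such as Lhx2 and Emx2, was found in 13.4%, against 19.2% in other olfactory receptors and 5.31% over all genes. CCCNNGGG, the core bound by the Ebf factors of olfactory neurons, was found in 4.12%, against 2.87% in other olfactory receptors and 13.4% over all genes. Of the windows printed, Olfr698 held TATAAA and an Ebf core, Olfr618 held TATAAA and Olfr593 held TATAAA and TAATTA. A match is a run of letters and not a site shown to be bound.

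The receptor rows lay in the lower range of the array in every embryo. Their median level was 4.95 on the log2 scale (lowest 3.56 for Olfr585, highest 6.68 for Olfr545), which is the 20.7th percentile of all rows. Of the 114 rows, 68 (59.6%) lay below the 25th percentile, 21 (18.4%) below the 10th and 5 (4.39%) below the 5th, and 5 lay above the array median. Over all rows with 1 symbol, 21.5% lay below the 25th percentile. A percentile places a probe set's signal on the array and does not rank transcripts, since probes of different genes differ in brightness.

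The 909 rows of other olfactory receptors had a median of 4.44 (percentile 12.6), with 75.6% below the 25th percentile. The 169 vomeronasal receptor rows had a median of 3.99 (percentile 6.87), with 91.1% below it. The deposited values carry no detection calls used here, so a low level was not told apart from background. In the same embryos the 9 measured genes of a 2-cell embryo list (zona pellucida, oocyte and genome activation genes) lay between percentiles 83.9 and 99.3, with list means of 10.2 to 10.8 in PJ34 embryos and 10.4 to 10.7 in control embryos. The 8 genes of a mature olfactory neuron list, Omp among them, lay between percentiles 10.5 and 73.0, with list means of 5.55 to 5.90 in PJ34 embryos and 5.61 to 5.78 in control embryos.

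**Figure D1:**
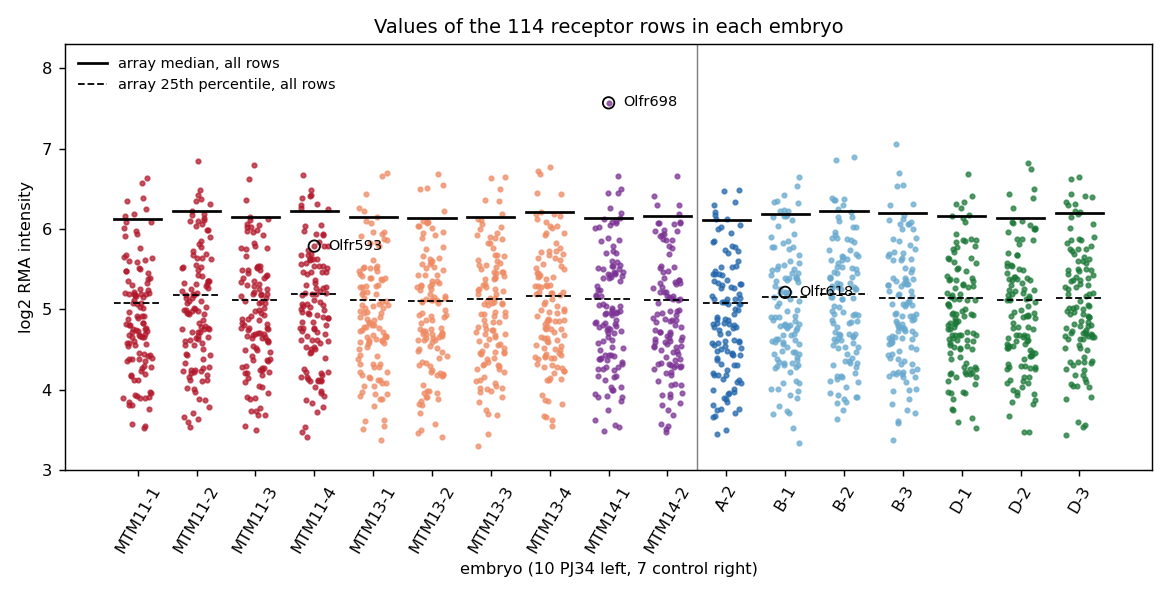
Each point is the log2 RMA intensity of 1 of the 114 receptor rows in 1 embryo, coloured by sire, with the 10 PJ34 embryos left of the 7 control embryos. Solid bars are the array medians (6.12 to 6.23) and dashed bars the array 25th percentiles (5.08 to 5.19), and the ringed points are the 3 values that stood at least 1 log2 unit above their row's median.

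The mean over the receptor rows was 4.97 ± 0.053 in PJ34 embryos (SD, n = 10, from 4.90 to 5.04) and 4.998 ± 0.071 in control embryos (SD, n = 7, from 4.88 in A-2 to 5.09 in B-2). Set against each array's own median, it was -1.20 ± 0.034 in PJ34 embryos and -1.18 ± 0.037 in control embryos. The ranges of the groups overlapped on both scales. The array medians lay between 6.12 and 6.23, with a mean of 6.166 in PJ34 embryos and 6.175 in control embryos.

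The median SD of a receptor row over the 17 embryos was 0.148, against 0.189 over all rows. Dimmer sets of rows varied slightly less, with 0.136 for other olfactory receptors, 0.121 for vomeronasal receptors and 0.135 for rows below the 25th percentile. These sets were not matched to the receptors in brightness. The receptor rows differed among themselves by an SD of 0.72. Of the 1938 receptor values, 1924 (99.3%) lay within 0.5 log2 units of their row's median, and in 103 rows no value lay over 0.5 above it. The values themselves ran from 3.30 to 7.57. The largest distance below a row's median was -0.56.

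The 6 brightest rows were Olfr545, Olfr566, Olfr678, Olfr666, Olfr692 and Olfr646, all class I. Olfr545 ran from 6.62 over a median of 6.66 to 6.84 in PJ34 embryos and from 6.47 over 6.68 to 6.86 in control embryos, at the 62.8th percentile. Olfr566 ran from 6.38 over 6.49 to 6.79 in PJ34 embryos and from 6.33 over 6.49 to 6.83 in control embryos. The groups overlapped in both rows. The SD of Olfr566 was 0.145 in PJ34 embryos and 0.179 in control embryos, and that of Olfr545 was 0.063 and 0.118. The others averaged 6.37 (Olfr678), 6.36 (Olfr666), 6.29 (Olfr692) and 6.17 (Olfr646), and the difference of PJ34 from control embryos in the 6 rows lay between -0.069 and 0.043, with adjusted p from 0.944 to 0.9998 (limma, Benjamini-Hochberg). All 6 stood near the array median in both groups.

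Levels are given by MOR family as a description, since the ranges of the families overlapped and probe sets differ in brightness. The 11 rows of MOR31 had a median of 4.76 (3.73 to 6.14) and the 7 of MOR34 had 5.65 (4.33 to 6.36). The 10 rows of MOR32, without the row named MOR0/MOR32, had 4.89 (4.22 to 6.37). The 5 class II rows of MOR283 had a median of 5.02 (percentile 22.0), against 4.94 (percentile 20.6) for the 107 class I rows. Family MOR34 held the adjacent rows Olfr666, Olfr667 and Olfr668, which averaged 6.36, 6.16 and 4.33.

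Genes other than olfactory receptors lie between the receptors in the same stretch, the beta-globins and several Trim and Usp17l genes among them. The 39 rows of 38 such genes had a median percentile of 45.9, against 20.7 for the receptors. Of these rows, 18 lay above the array median and 7 below the 25th percentile. Taf10, a subunit of the general transcription factor TFIID, had 2 rows, at 11.18 and 8.86, and Usp17lb was at 9.21. The embryonic globin rows Hbb-bh1 and Hbb-y averaged 4.33 and 5.28, within the range of the receptors.

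**Figure D2:**
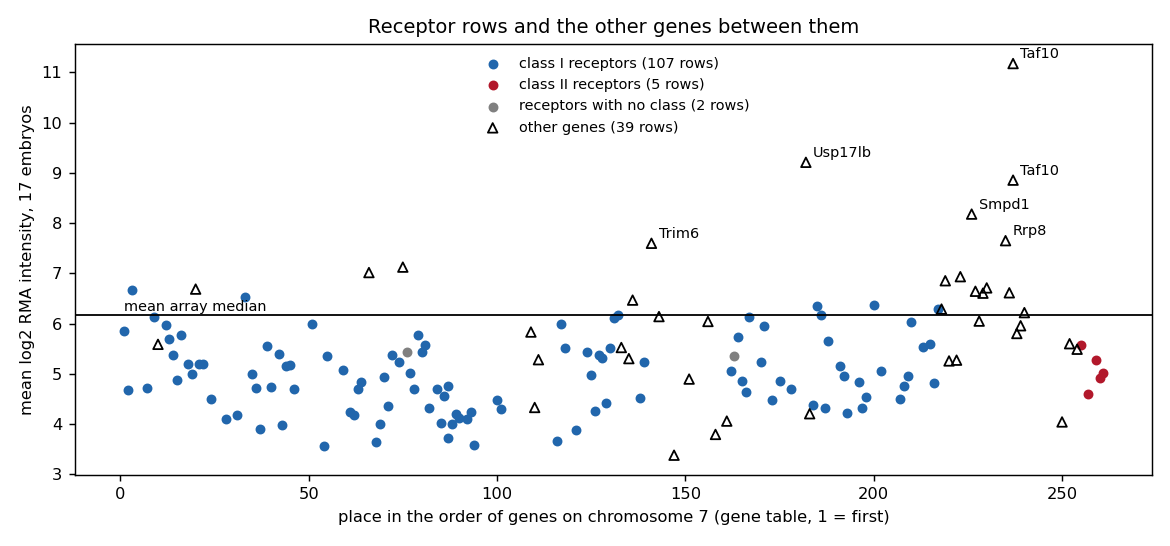
Mean log2 RMA intensity over 17 embryos (y axis) against the place of each gene in the order of 261 genes between the first and the last receptor on chromosome 7 (x axis, gene table). Circles are receptor rows by class and triangles are rows of other genes, of which the 6 above the 75th percentile are named, and the receptor rows lie between 3.56 and 6.68 along the whole stretch.

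Sporadic high values in single embryos were counted in the same way in both groups, as values at least 1 log2 unit above the row's median over 17 embryos. The receptors held 2 such values of 1140 in PJ34 embryos (0.175%), against 2.28% over all rows with 1 symbol, and 1 of 798 in control embryos (0.125%), against 2.22% over all rows. The shares of both groups lay below those of all rows, and the difference between the groups is that of a single value. No receptor value lay 1 log2 unit or more below its row's median. As a description with no test, rows whose mean lay below the 25th percentile had 0.933% high values in PJ34 embryos and 0.848% in control embryos.

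Other olfactory receptors had 47 high values of 9090 in PJ34 embryos (0.517%) and 14 of 6363 in control embryos (0.22%). Of the PJ34 values, 11 were in MTM14-1, and vomeronasal receptors ran the other way, with 4 of 1690 in PJ34 embryos (0.237%) and 8 of 1183 in control embryos (0.676%). Neither difference was tested. With 2 and 1 high values, the receptors of the block cannot show such a difference.

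**Figure D3:**
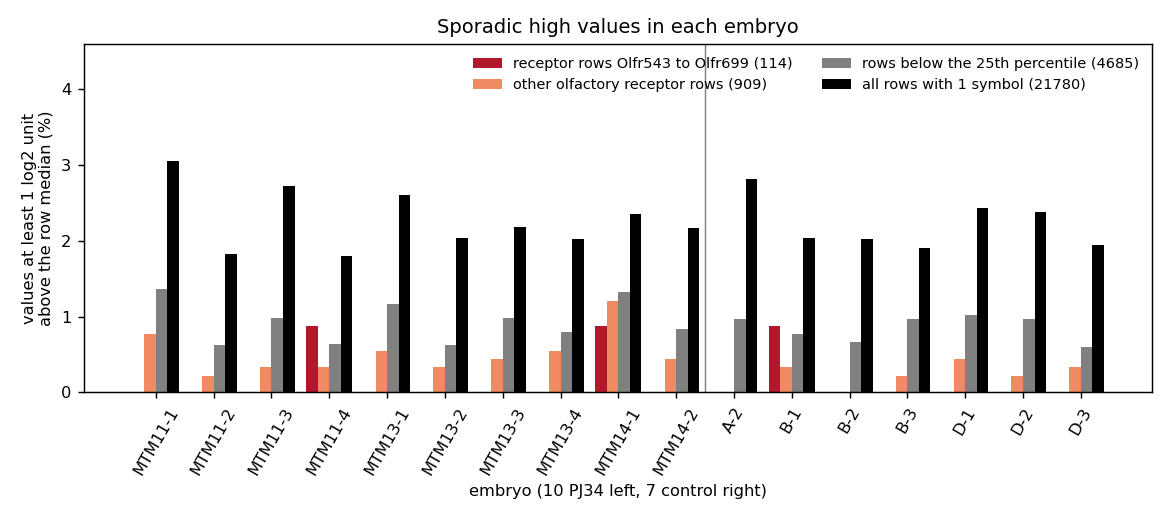
Percent of values at least 1 log2 unit above the row's median (y axis) in each embryo, PJ34 left of control, for the 114 receptor rows, 909 rows of other olfactory receptors, the 4685 rows below the 25th percentile and all 21780 rows. The receptors of the block have 1 high value each in MTM11-4, MTM14-1 and control embryo B-1 (0.877% of 114 rows) and none in the other 14 embryos.

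The 3 high values belonged to 3 receptors in embryos of 3 sires. Olfr698, a class II receptor near the end of the block, was at 7.57 in PJ34 embryo MTM14-1, 2.82 log2 units above the row's median of 4.75. The lowest value of the PJ34 embryos was 4.53 and their median 4.73, and control embryos ran from 4.62 over 4.75 to 5.13. The other embryo of the same sire, MTM14-2, held that lowest value of 4.53. In MTM14-1 the row stood at the 77.4th percentile of the array, against a median percentile of 18.0 over the embryos.

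Olfr618, a class I receptor of family MOR31, was at 5.21 in control embryo B-1. It ran from 3.76 over a median of 3.98 to 4.13 in PJ34 embryos and from 3.75 over 3.89 to 5.21 in control embryos. The excess of B-1 over the row's median was 1.26, and every other embryo stayed at or below 4.13. Olfr593, a class I receptor of family MOR24, was at 5.79 in PJ34 embryo MTM11-4, an excess of 1.17. It ran from 4.42 over 4.61 to 5.79 in PJ34 embryos and from 4.52 over 4.63 to 4.85 in control embryos, so that the groups overlapped apart from this 1 embryo.

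The next 5 rows by the size of a single value stayed under the limit of 1 log2 unit, and were chosen for that value. Olfr667 was 0.98 above its median in control embryo B-3, at 7.06. Olfr597 was 0.86 above in MTM13-4, at 4.40. Olfr654 was 0.85 above in MTM11-4, at 5.67, and its next highest value was 5.46 in MTM13-4. These embryos belong to both groups and to different sires. Olfr598 was 0.75 above in control embryo D-3, at 4.69, and Olfr556 was 0.67 above in MTM13-3, at 5.61.

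Receptors next to a high one in the order of genes were at their usual level in the same embryo in some rows and above it in others. In MTM14-1, Olfr699 was at 4.97 (-0.015 from its row's median). Olfr697 was at 5.50 (0.30 above, rank 3 of the 17 embryos) and Olfr695 at 5.04 (0.43 above, the highest of the 17 embryos for that row). In control embryo B-1, the rows before Olfr618 lay within 0.027 of their medians. Olfr619 was 0.31 above its own, rank 2 of the 17 embryos. In MTM11-4, the receptor rows Olfr591, Olfr592 and Olfr594 around Olfr593 lay within 0.032 of their medians. Around the rows that stayed under the limit, Olfr598 (beside Olfr597) was 0.37 above its median in MTM13-4. Olfr669 (near Olfr667) was 0.39 above in B-3 and Olfr600 (near Olfr598) 0.31 above in D-3. The other receptor rows within 2 places of such a row lay within 0.14 of their medians. None of these adjacent rows reached 1 log2 unit.

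Each embryo was also set against 6 control embryos, with the spread taken from those controls, for 10 PJ34 embryos against each of 7 sets of 6 and for each control embryo against the other 6. Of 7980 such tests of receptor rows, 15 were called higher in a PJ34 embryo at an adjusted p below 0.1 (0.188%), against 0.438% over all rows. Of 798 tests in control embryos, 1 was called higher (0.125%), against 0.357% over all rows. None was called lower, against 0.0935% over all rows in PJ34 embryos and 0.04% in control embryos. The calls were Olfr698 in MTM14-1 and Olfr593 in MTM11-4 in 7 of 7 sets, Olfr654 in MTM11-4 in 1 set of 7, and Olfr618 in control embryo B-1. A lone embryo was assumed here to vary like a control embryo.

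As means per embryo, 0.214 receptor rows were called higher in a PJ34 embryo and 0.143 in a control embryo. Receptor calls were found in MTM11-4, MTM14-1 and B-1, and in none of the other 14 embryos. With so few calls, neither a difference between the groups nor its absence was shown.

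No receptor row passed the threshold of the study (adjusted p below 0.1, limma over 21780 rows) between 10 PJ34 and 7 control embryos, and 0 of all rows did. The lowest adjusted p of a receptor row was 0.843. At an unadjusted p below 0.05, 1 receptor row was higher in PJ34 embryos (0.877%), against 1.96% over all rows, and 3 were lower (2.63%), against 3.93% over all rows. With each array centred on its own median this split turned to 3 higher and 1 lower. Leaving out single embryos gave 0 (without MTM14-1) to 8 rows lower (without A-2) and 0 to 3 rows higher (without B-2). Both shares lay below those of all rows with the values as deposited and all embryos.

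The median difference of the receptor rows was -0.049 on the log2 scale, against -0.016 over all rows and -0.017 over other olfactory receptors, with 80 of 114 rows (70.2%) below 0 against 56.4% of all rows. Single differences ran from -0.22 (Olfr667) to 0.24 (Olfr698). The class I rows had a median of -0.051 with 77 of 107 below 0. The 5 class II rows had a median of 0.10 with 1 below 0. That class II median is the difference of Olfr697, which was 0.069 in MTM11, -0.044 in MTM13 and 0.47 in MTM14. The difference of Olfr698 was -0.039 without MTM14-1. In Olfr697 and Olfr698 the contrast of the classes thus leans on MTM14. Olfr699, also class II, differed by 0.16 in MTM11, 0.26 in MTM13 and 0.058 in MTM14. The contrast was not tested. Without the 3 embryos of control sire B the median of all receptor rows was -0.0017. Without 1 control embryo it was -0.063 (A-2), -0.031 (B-1), -0.022 (B-2), -0.039 (B-3), -0.045 (D-1), -0.047 (D-2) or -0.027 (D-3). With each array centred on its own median it was -0.041. The rows of an embryo share its array, so this median carries no test.

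**Figure D4:**
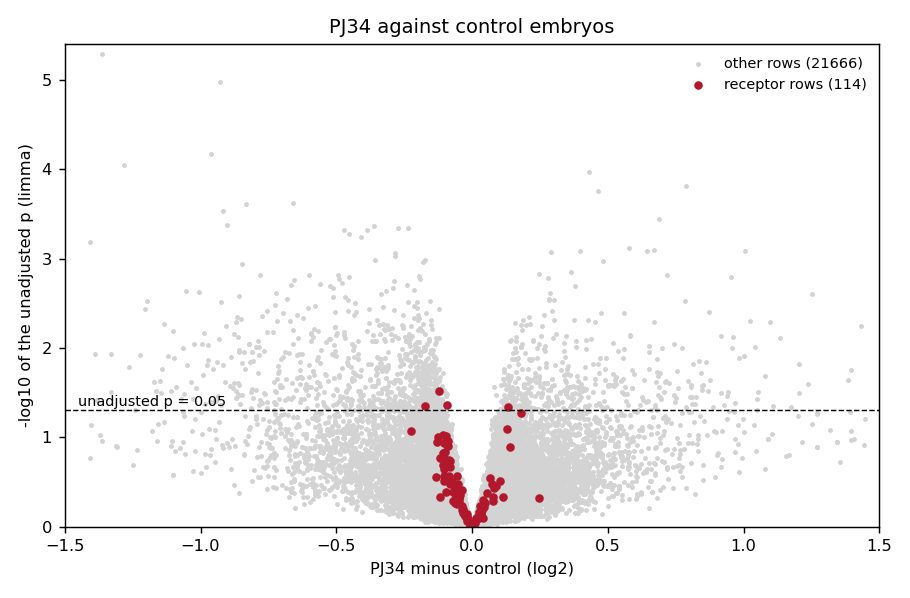
Difference of PJ34 from control embryos (x axis, log2, positive where PJ34 is higher) against -log10 of the unadjusted limma p (y axis), with 114 receptor rows in red and 21666 other rows in grey. The receptor differences lie between -0.22 and 0.24 and 4 of them are above the dashed line at p = 0.05, and 21 other rows lie beyond the limits of the x axis.

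Of the rows lower in PJ34 embryos, Olfr629, Olfr547 and Olfr668 had the smallest p. Olfr629 (MOR26) ran from 4.29 over a median of 4.38 to 4.62 in PJ34 embryos and from 4.47 over 4.51 to 4.69 in control embryos. Its difference was -0.12 (SE 0.052, p = 0.030, adjusted p = 0.843, limma), with 8 of 10 PJ34 embryos below the control mean. Olfr547 (MOR31) averaged 4.68 ± 0.076 in PJ34 embryos and 4.77 ± 0.054 in control embryos (SD), a difference of -0.092 with 9 of 10 PJ34 embryos below the control mean. Olfr668 (MOR34) averaged 4.25 ± 0.124 in PJ34 embryos and 4.43 ± 0.203 in control embryos, a difference of -0.17 with 10 of 10 below. The groups overlapped in all 3 rows.

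Olfr667, the neighbour of Olfr668 in the same family, had the most negative difference, -0.22 (SE 0.12, adjusted p = 0.866, limma). It ran from 5.92 over 6.04 to 6.38 in PJ34 embryos and from 5.88 over 6.24 to 7.06 in control embryos. The highest control value is that of B-3, and without that embryo the difference was -0.097. Olfr648 (MOR31) averaged 4.48 ± 0.119 in PJ34 embryos and 4.59 ± 0.11 in control embryos, a difference of -0.11.

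Of the rows higher in PJ34 embryos, Olfr611 (MOR15) had the smallest p. It ran from 4.29 over 4.37 to 4.51 in PJ34 embryos and from 4.08 over 4.21 to 4.53 in control embryos, with 10 of 10 PJ34 embryos above the control mean. The difference was 0.13 (SE 0.061, p = 0.046, adjusted p = 0.843, limma). The highest value of the row was in a control embryo, B-2. Olfr699, a class II receptor, averaged 5.09 ± 0.173 in PJ34 embryos and 4.91 ± 0.182 in control embryos, a difference of 0.18 with 10 of 10 above the control mean and an adjusted p of 0.845 (limma). Olfr639, Olfr657 and Olfr658 had differences of 0.13, 0.14 and 0.066, with 9, 9 and 8 of 10 PJ34 embryos above the control mean.

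Receptors with known ligands were named whatever their values. Olfr544, a receptor of azelaic acid, ran from 4.43 over 4.70 to 5.17 in PJ34 embryos and from 4.29 over 4.62 to 4.87 in control embryos, a difference of 0.077 (95% interval from -0.14 to 0.29). Olfr558, the mouse counterpart of human OR51E1 and a receptor of short-chain fatty acids, ran from 4.93 over 5.17 to 5.30 in PJ34 embryos and from 5.11 over 5.25 to 5.53 in control embryos. Its difference was -0.11 (95% interval from -0.26 to 0.049). Olfr691, a receptor of carboxylic acids, differed by 0.014 (95% interval from -0.13 to 0.16). In each of the 3 rows the groups overlapped and the interval includes 0.

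**Figure D5:**
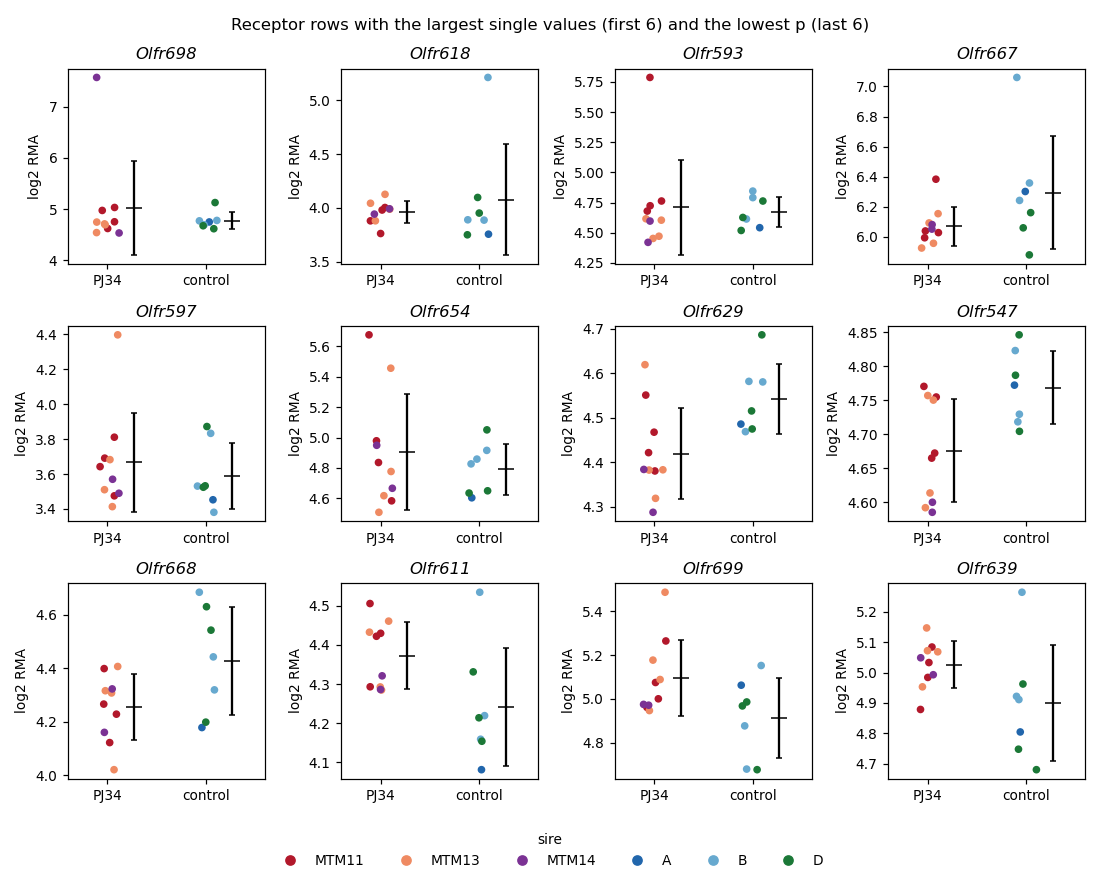
Log2 RMA intensity of 12 receptor rows in single embryos, PJ34 left of control and coloured by sire, with the mean and SD of each group as a bar. The first 6 panels hold the largest single values, such as Olfr698 at 7.57 in MTM14-1 and Olfr618 at 5.21 in control embryo B-1, and the last 6 hold the 3 rows of lowest p in each direction, all with overlapping groups.

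The group differences of the 3 rows with a high value turned on 1 embryo each. The difference of Olfr698 was 0.24 with MTM14-1 and -0.039 without it, that of Olfr618 was -0.12 with control embryo B-1 and 0.071 without it, and that of Olfr593 was 0.040 with MTM11-4 and -0.080 without it. All 3 change sign, and the embryos were chosen for their high values.

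Each PJ34 family was set against the 7 control embryos in 1 fit with 4 groups. No receptor row passed an adjusted p below 0.1 in MTM11 (all rows 0.00459% higher and 0% lower), in MTM13 (0% higher and 0% lower) or in MTM14 (0.0413% higher and 0.0138% lower). With an unadjusted p below 0.05 (limma), 1 receptor row was higher (0.877%) and 0 lower in MTM11, against 2.72% and 2.53% of all rows. In MTM13, 1 was higher (0.877%) and 0 lower, against 2.06% and 2.9% of all rows. In MTM14, 2 were higher (1.75%) and 4 lower (3.51%), against 2.53% and 3% of all rows. The receptors' shares lay below or near those of all rows in each family. The median differences were -0.034, -0.040 and -0.057 in that order, against -0.0029, -0.024 and -0.043 over all rows. Family MTM14 has 2 embryos, so a single embryo moves its mean. Without MTM14-2, the receptor row Olfr698 was called higher at an adjusted p below 0.1 in the embryo left, MTM14-1 (1 of 114 rows, 0.877%). In the same fit 131 of all rows (0.601%) were called higher, 13 other olfactory receptors among them, and the lone embryo was assumed to vary like the other groups.

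The 2 rows higher in MTM14 were the adjacent class II receptors Olfr697 and Olfr698. Olfr697 was at 5.50 in MTM14-1 and 5.86 in MTM14-2, and the 7 control embryos ran from 5.07 over 5.20 to 5.32. Both embryos of this sire lay above all controls for Olfr697, as did MTM11-3 (5.54) and MTM13-2 (5.35) of the other sires. The difference of MTM14 from control embryos was 0.47 for Olfr697 (p = 0.0011, adjusted p = 0.458, limma). Olfr698 was high in MTM14-1 alone, and the MTM14 difference was 1.28 (adjusted p = 0.765, limma). Olfr648 had the lowest p among the 4 rows lower in MTM14, with a difference of -0.29 (adjusted p = 0.611, limma). The remaining 3 were Olfr547, Olfr601 and Olfr629, with differences of -0.18, -0.30 and -0.21.

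Whether the 3 PJ34 sires differed was asked with limma's moderated F test. No receptor row passed at an adjusted p below 0.1, where 3 of 21780 rows did (0.0138%). At an unadjusted p below 0.05, 3 receptor rows (Olfr697, Olfr648 and Olfr698, 2.63%) and 1069 of all rows (4.91%) passed. The lowest adjusted p of a receptor row was 0.833, for Olfr697.

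Among the genes that lie between the receptors, at an unadjusted p below 0.05, 0 of 39 rows were higher and 4 (10.3%) were lower in PJ34 embryos, against 1.96% and 3.93% of all rows, and 0 passed the adjusted threshold (limma). Trim6, a ubiquitin ligase studied in mouse embryonic stem cells, averaged 7.22 ± 0.311 in PJ34 embryos and 8.14 ± 0.328 in control embryos, a difference of -0.93 with 10 of 10 PJ34 embryos below the control mean (p = 1.07e-05, adjusted p = 0.117). Usp17lb, of a family of deubiquitinating enzymes, averaged 8.75 ± 1.21 in PJ34 embryos and 9.86 ± 0.564 in control embryos. Smpd1, the acid sphingomyelinase, averaged 7.82 ± 0.568 in PJ34 embryos and 8.69 ± 1.09 in control embryos, and Usp17lc differed by -0.48. The nearest receptor rows on either side of Trim6, Olfr649 and Olfr651, differed by -0.0037 and -0.033.

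The genes that olfactory neurons use to choose, fold and read a receptor were examined as a list of 34, of which 33 were measured in 36 rows. At an unadjusted p below 0.05, 2 rows were higher (5.56%) and 1 lower (2.78%) in PJ34 embryos, against 1.96% and 3.93% of all rows, and 0 passed the adjusted threshold (limma). Kdm1a, a histone demethylase that acts in receptor choice, averaged 8.72 ± 0.413 in PJ34 embryos and 8.22 ± 0.463 in control embryos (difference 0.50). Gnb1, a G-protein beta subunit, differed by 0.39, and Slc12a2, the chloride importer, by -0.20. These 3 genes are used by many cell types. Cbx5, a heterochromatin protein, differed by -0.33 (p = 0.050, limma). Rtp1, a chaperone that brings olfactory receptors to the cell surface, averaged 5.41 ± 0.199 in PJ34 embryos and 5.59 ± 0.163 in control embryos. Its difference was -0.17 (p = 0.071, adjusted p = 0.863, limma). Rtp2 differed by -0.0078, Omp by -0.0054 and Gnal by 0.11.

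Lists of genes of other cells that an embryo preparation could carry had similar list means in both groups. The list mean of 6 cumulus cell genes was 5.08 to 5.39 in PJ34 embryos and 5.12 to 5.39 in control embryos, and that of 6 sperm genes was 5.72 to 5.92 in PJ34 embryos and 5.65 to 5.98 in control embryos. For 4 of 5 listed oviduct genes, without Ovgp1, it was 6.44 to 7.02 in PJ34 embryos and 6.51 to 6.70 in control embryos. These were Krt19, Krt18, Krt8 and Epcam, at percentiles 24.4, 53.8, 74.4 and 80.1. Whether their signal came from oviduct cells or from the embryo was not tested. For 3 of 9 listed blood genes, without the adult globins, it was 5.77 to 6.01 in PJ34 embryos and 5.76 to 6.04 in control embryos. Single genes could differ, with 0.17 for the sperm gene Prm1 (p = 0.022, limma) and -0.16 for the blood gene Slc4a1 (p = 0.029, limma). Each had the lowest p of its list. The other sperm genes differed by -0.11 (Prm2), -0.089 (Tnp2), -0.077 (Tnp1), -0.049 (Akap4) and 0.036 (Odf1). The other blood genes differed by 0.020 (Alas2) and 0.016 (Ptprc). The ranges overlapped in all 4 lists, and their part in the receptor values was not tested.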

How the data were processed

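RNA of single 2-cell embryos was amplified and read on Affymetrix arrays of the Mouse Gene 1.0 ST design. The authors deposited log2 values made with RMA in Partek (background correction, quantile normalization, log2 transformation and probe set summary). The sources used here give neither software versions nor a genome build. The deposited arrays did not share 1 distribution, with medians from 6.12 to 6.23, so each array was also centred as an alternative, and a change common to all genes may have been removed by the normalization. Arrays have no read depth, and the 10 PJ34 and 7 control embryos limit the precision. No column of another series was present.

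The log2 values were used as deposited. Rows were named from the platform annotation, with symbols updated by gene ID from a gene table on GRCm38.p6, which also gave the order of genes and the MOR names. All 113 receptor genes matched it. Class I was given to MOR families numbered below 100. Differences were tested with limma 3.58.1 in R 4.3.3, two-sided, with Benjamini-Hochberg adjustment over the 21780 rows with 1 symbol and the threshold of 0.1 used in the study. The same code was tested on simulated data. Counts of sporadic high values, levels and classes are descriptions. Python 3.11.15 with matplotlib 3.10.9 drew the figures.

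The named rows were the 5 with the smallest p in each direction and the 6 brightest. The 8 with the largest single value over the row's median and 3 receptors with known ligands were added. Also named were the 4 other genes of the stretch with the smallest p and 2 genes in each direction of the signalling list. Rtp1 and the signalling genes set beside it were named outside these rules. The receptors, lists and rules were chosen with earlier results of these data known. Alternatives were the sire as a random block, sire means, centred or renormalized arrays, other rows, other variance models, the methods' one-way analysis of variance, other limits for a high value, and leaving out each embryo or sire. Rows with several symbols (1605) or none (5430) were tested only as an alternative. Whether probes of near-identical receptors also bind each other's transcripts was not tested.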

Additional observations from a re-analysis of the deposited data

Results flagged for a closer look

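In 54 sets of values (the named receptor rows in each group and the mean over all receptor rows), the highest or lowest embryo lay far from the others by Dixon's criterion at the 95% level in 11, 6 in PJ34 embryos and 5 in control embryos. Chance gives about 1 in 20, and 8 of the 26 named rows were chosen for their largest single value, so the number carries no weight of its own. In PJ34 embryos the values were Olfr698 at 7.57 in MTM14-1 (the others up to 5.03), Olfr593 at 5.79 in MTM11-4 (up to 4.76), Olfr597 at 4.40 in MTM13-4 (up to 3.81), Olfr556 at 5.61 in MTM13-3 (up to 5.07), Olfr667 at 6.38 in MTM11-1 (up to 6.15) and Olfr545 at 6.84 in MTM11-2 (up to 6.69). In control embryos they were Olfr618 at 5.21 in B-1 (up to 4.10), Olfr667 at 7.06 in B-3 (up to 6.36), Olfr598 at 4.69 in D-3 (up to 4.13), Olfr556 at 5.41 in B-2 (up to 5.08) and Olfr698 at 5.13 in D-1 (up to 4.78). In all 11 the distant embryo was the highest one.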

How the results depend on the processing

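No receptor row passed an adjusted p below 0.1 between PJ34 and control embryos under any alternative run. The counts at an unadjusted p below 0.05 (1 higher and 3 lower in PJ34 embryos) moved with most settings: 2 higher with the sire as a random block, 2 higher with limma's trend and robust options, 3 higher and 1 lower with centred arrays, 3 higher with renormalized arrays, and 0 higher and 0 lower on sire means or among the 60 receptor rows above the 20th percentile. Without a sire they were 8 lower (A), 3 higher and 0 lower (B), 0 higher (D, MTM11 or MTM13), and 2 higher and 0 lower (MTM14). Leaving out single embryos gave 0 to 3 higher and 0 (without MTM14-1) to 8 lower (without A-2), and a median difference from -0.063 to -0.022. Without MTM14-2, family MTM14 is MTM14-1 alone, with Olfr698 at 7.57.

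High values numbered 4 in PJ34 and 3 in control embryos at a limit of 0.75, 1 and 0 at 1.5, and 1 and 0 where a value above the 50th percentile in a row below the 25th was counted. Leaving out single embryos gave 1 to 2 in PJ34 embryos and 0 to 1 in control embryos. The median percentile was 17.4 when ranked among rows with 1 symbol. The difference of Olfr691 ran from -0.024 to 0.036 when single embryos were left out. In an alternative chosen after seeing the data, without the embryo of their highest value, the differences were -0.039 for Olfr698, 0.071 for Olfr618, -0.080 for Olfr593, -0.0022 for Olfr597 and 0.011 for Olfr598. Of 260 alternatives for rows named by p or ligand, 257 kept direction and side of the threshold, with adjusted p from 0.680 upward. No paired analysis was possible because the embryo numbers of the groups are not shared. The number of embryos per sire (1 to 4) limits what can be said of a sire, and low signals limit fold changes.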
